A study of Mus musculus with 12 samples.

Results

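The genes described here encode the eukaryotic initiation factors eIF1 to eIF6 and the elongation factors eEF1 and eEF2, together with the proteins named for binding or modifying them. They were taken by name: every probe on the array annotated with a single symbol beginning with Eif1 to Eif6 or with Eef1 or Eef2 was included, except the eIF2alpha kinases (Eif2ak genes), and each gene was represented by its probe with the highest mean. This gave 59 genes of the 19057 with a probe, and 46 of the 59 had a probe above the detection level on at least 4 of the 12 arrays and were tested, among 9103 genes tested in all. The arrays were Illumina bead arrays of total RNA from NIH-3T3, an established line of mouse fibroblasts, and they were deposited to find mRNAs that depend on the small nucleolar RNA U17. Of the 3 groups, WT carries no construct named in the labels, U17_KD is a stable clone carrying ShSnhg3 (a short hairpin named for Snhg3, the host transcript of U17), and U17_OE is a stable clone carrying pMDβglobinU17b. All cells, WT included, had grown for 24 h in LPDS, medium with lipoprotein-deficient serum. Each group has 4 arrays that the labels call biological replicates, and each manipulated group is 1 clone, so an effect of U17 and a property of that clone cannot be told apart. Nothing in the labels says how the 4 cultures of a group were kept apart, so the p-values measure the spread between these arrays.

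As background, eIF2 loaded with GTP brings the initiator tRNA to the small ribosomal subunit, eIF1, eIF1A and eIF3 hold the complex together, and eIF4E, the eIF4G scaffolds and the eIF4A helicases bring the capped mRNA. At the start codon eIF5 triggers GTP hydrolysis, eIF2B recharges the released eIF2, and eIF5B joins the large subunit. eEF1A then delivers each aminoacyl-tRNA and eEF2 moves the ribosome along, and growing fibroblasts are known to set the rate of this machinery largely through phosphorylation of its proteins, which an mRNA array does not see.

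All values below are log2 intensities after background correction, and differences are log2 differences with the standard error from a limma fit over 16706 probes. A gene is called where its Benjamini-Hochberg adjusted p from limma is under 0.05, and no probe's level is set against another's. As a bulk measurement, a lower value cannot be told apart between fewer cells holding the mRNA and less of it per cell. Of 9 fibroblast markers, 8 were detected on all 12 arrays and Col3a1 on 11, while Epcam, Krt18, Pecam1, Cdh5, Ptprc, Adgre1 and Myod1, which define epithelial, endothelial, blood and muscle cells, were detected on 0. The other 6 markers listed for those cell types with a probe (Cdh1, Krt8, Kdr, Csf1r, Myog and Des) were detected on 6 to 10 arrays, and the mean of each of these lists stayed between 4.95 and 5.63 in every group. The mean log2 level of the fibroblast markers was 10.06 to 10.22 in WT, 10.88 to 10.98 in U17_KD and 10.00 to 10.58 in U17_OE. The part of that shift in the results below was not tested. Each array had 15820 to 15832 of the 45281 probes above the detection level. U17_OE replicate 3 stood apart, with a standard deviation of 0.295 from its group's mean profile against 0.136 to 0.205 on the other 11 arrays, and the calls that changed without it are given with each comparison.

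In the knockdown clone, 19 of the 46 genes were called lower than in WT and 2 higher, which is 41.3% and 4.35% of those tested. Among all genes tested, 40.5% were called in this comparison, 20.4% lower and 20.0% higher. The median difference of the 46 genes was -0.13, against -0.02 over all genes tested, and single genes ran from -0.64 to 0.59, so none reached 2-fold where 500 of all genes tested did. In 16 of the 46 the 4 U17_KD arrays all lay below the 4 WT arrays and in 3 all above, while 22.4% and 22.1% of all genes did so. Measured on each array, the median of the 46 genes against the WT mean was -0.13, -0.16, -0.11 and -0.10 in U17_KD, so the shift was seen on all 4 arrays. It was -0.07, -0.06, -0.02 and -0.07 in U17_OE. Whether the members' shares differ from those of all genes was not tested.

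**Figure D1:**
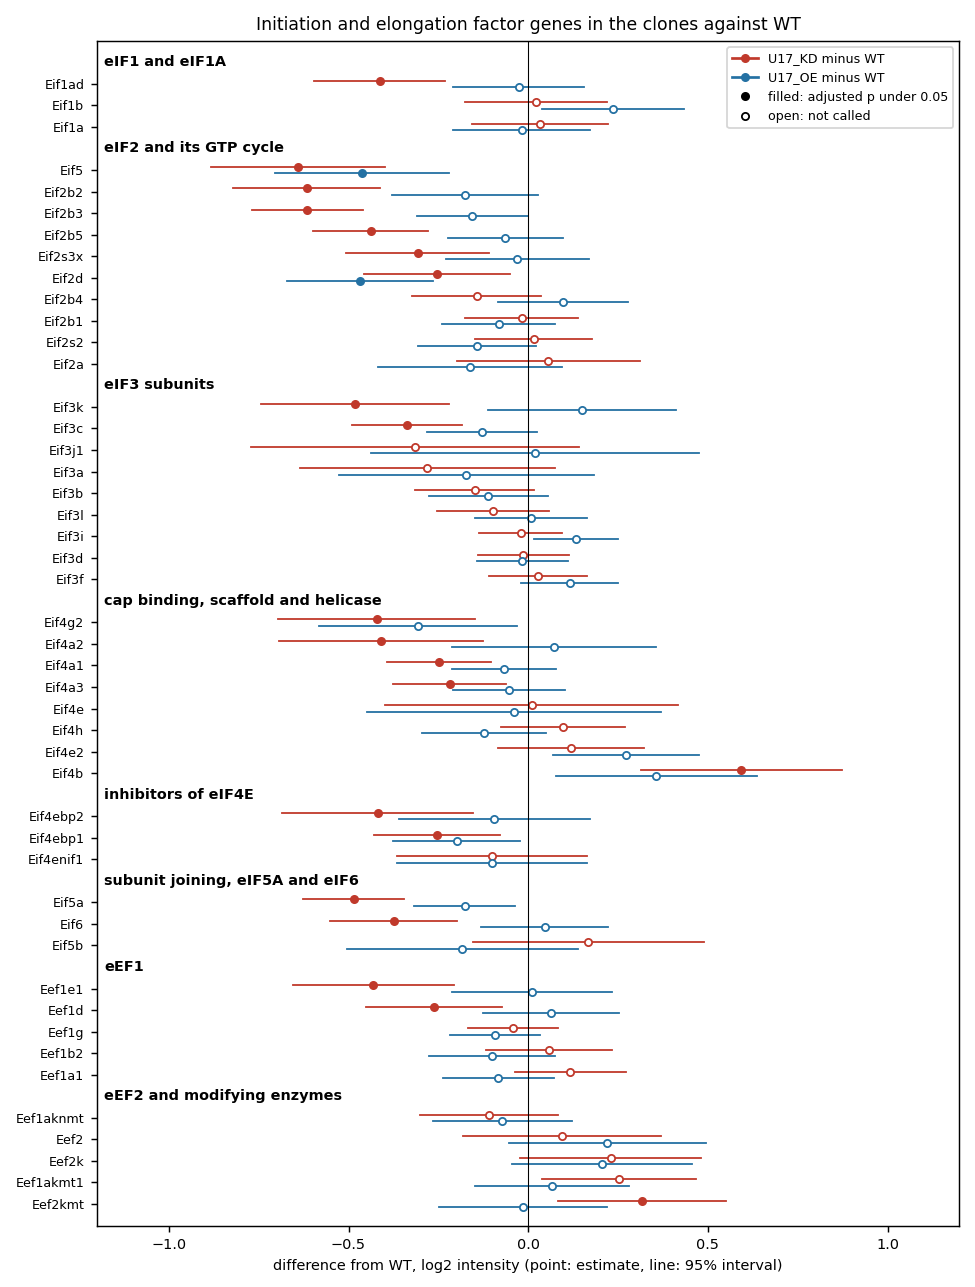
Difference from WT in log2 intensity for the 46 tested genes, grouped by role, with 95% intervals; red is U17_KD minus WT, blue is U17_OE minus WT, and filled points have an adjusted p under 0.05. In U17_KD 19 genes were called lower and 2 higher, while in U17_OE only Eif2d and Eif5 were called.

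The largest single-gene drop in U17_KD among the 46 genes, that of Eif5, lay among the factors that charge and recharge eIF2. This was also the only role with calls in both clones. Of 10 tested genes of this role 6 were called lower in U17_KD (60.0%, against 20.4% of all genes tested), with a median of -0.28. The 3 tested genes for subunit joining, eIF5A and eIF6 had a lower median, at -0.37, with 66.7% called lower. Of the 3 tested inhibitors of eIF4E, 66.7% were also called lower. Eif5 encodes the protein that triggers GTP hydrolysis by eIF2. It read 13.28, 13.27, 13.36 and 13.28 on the WT arrays, 12.51, 12.55, 12.86 and 12.72 in U17_KD and 13.11, 13.02, 12.41 and 12.81 in U17_OE. Every array of both clones lay below every WT array. The difference was -0.64 ± 0.12 (SE, n = 4 against 4) in U17_KD, a 1.56-fold lower value with a limma adjusted p of 0.000235, and -0.46 ± 0.12 in U17_OE (adjusted p = 0.013). Both comparisons use the same WT arrays. The other 2 kept Eif5 probes read -0.76 and -0.85 in U17_KD and -0.32 and -0.49 in U17_OE, and all 4 of these differences were called.

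eIF2B, the exchange factor that reloads eIF2 with GTP, has 5 subunits, and all 5 were tested. Eif2b3, the gamma subunit, read 10.99, 10.82, 11.02 and 10.93 in WT, 10.38, 10.27, 10.31 and 10.35 in U17_KD and 10.78, 10.84, 10.74 and 10.78 in U17_OE. The U17_KD arrays were lower than all 8 others, and 1 U17_OE array reached above the lowest WT array. It was lower in U17_KD by -0.62 ± 0.07 (1.53-fold, limma adjusted p = 2.49e-06), and the value in U17_OE was -0.16 (adjusted p = 0.203, not called). Eif2b2, the beta subunit, read 10.89, 10.88, 10.89 and 10.84 in WT, 10.34, 10.35, 10.24 and 10.11 in U17_KD and 10.56, 10.57, 11.02 and 10.66 in U17_OE. Again the knockdown arrays lay below all others, by -0.62 ± 0.10 against WT (limma adjusted p = 5.74e-05). In U17_OE, 3 arrays were below WT and replicate 3 above it; the difference of -0.18 was not called, and without that array it was -0.28 with an adjusted p of 0.0125.

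Eif2b5, the catalytic epsilon subunit, read 12.36, 12.46, 12.28 and 12.27 in WT, 11.84, 11.91, 11.97 and 11.89 in U17_KD and 12.14, 12.25, 12.45 and 12.28 in U17_OE. The U17_KD arrays were again below all others, at -0.44 ± 0.08 from WT (limma adjusted p = 0.000159), and its other 2 kept probes read -0.37 and -0.49, both called. The remaining 2 subunits were not called against WT. Eif2b1 (alpha) was at -0.02 (95% interval -0.18 to 0.14) and Eif2b4 (delta) at -0.14 (-0.32 to 0.04). Whether these 2 differ from the called subunits was not tested. Of the eIF2 subunits, Eif2s3x, the GTP-binding gamma subunit, was called lower at -0.31 ± 0.09 (limma adjusted p = 0.0149), although 1 U17_KD array reached the WT range. The call was lost without WT replicate 2 (adjusted p = 0.0565) or U17_KD replicate 2 (0.0583). Eif2s3x has a near-identical copy, Eif2s3y, whose transcripts its probe may also bind. Eif2s2, the beta subunit, was at 0.02 (-0.15 to 0.18), and Eif2a, which despite its symbol is a separate protein and not the alpha subunit, at 0.06 (-0.20 to 0.31).

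Eif2d encodes a factor that can place tRNA in the ribosome without eIF2 and acts in recycling. It read 10.31, 10.14, 10.17 and 10.41 in WT, 10.05, 10.00, 9.98 and 9.99 in U17_KD and 9.81, 9.57, 10.02 and 9.76 in U17_OE. Both clones lay below WT on all arrays, and U17_OE replicate 3 lay within the U17_KD range. The difference from WT was -0.47 ± 0.10 in U17_OE (limma adjusted p = 0.00347) and -0.26 in U17_KD (adjusted p = 0.0455). Its second probe, detected on 6 arrays only, read 0.15 in each clone. With the probes averaged the value was -0.16 in U17_OE (limma adjusted p = 0.404) and -0.05 in U17_KD (0.738), and neither was called. The U17_KD call was also lost when any 1 of 8 arrays was left out (WT replicate 1, 3 or 4, any U17_KD array, or U17_OE replicate 4), with adjusted p from 0.0519 to 0.146.

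**Figure D2:**
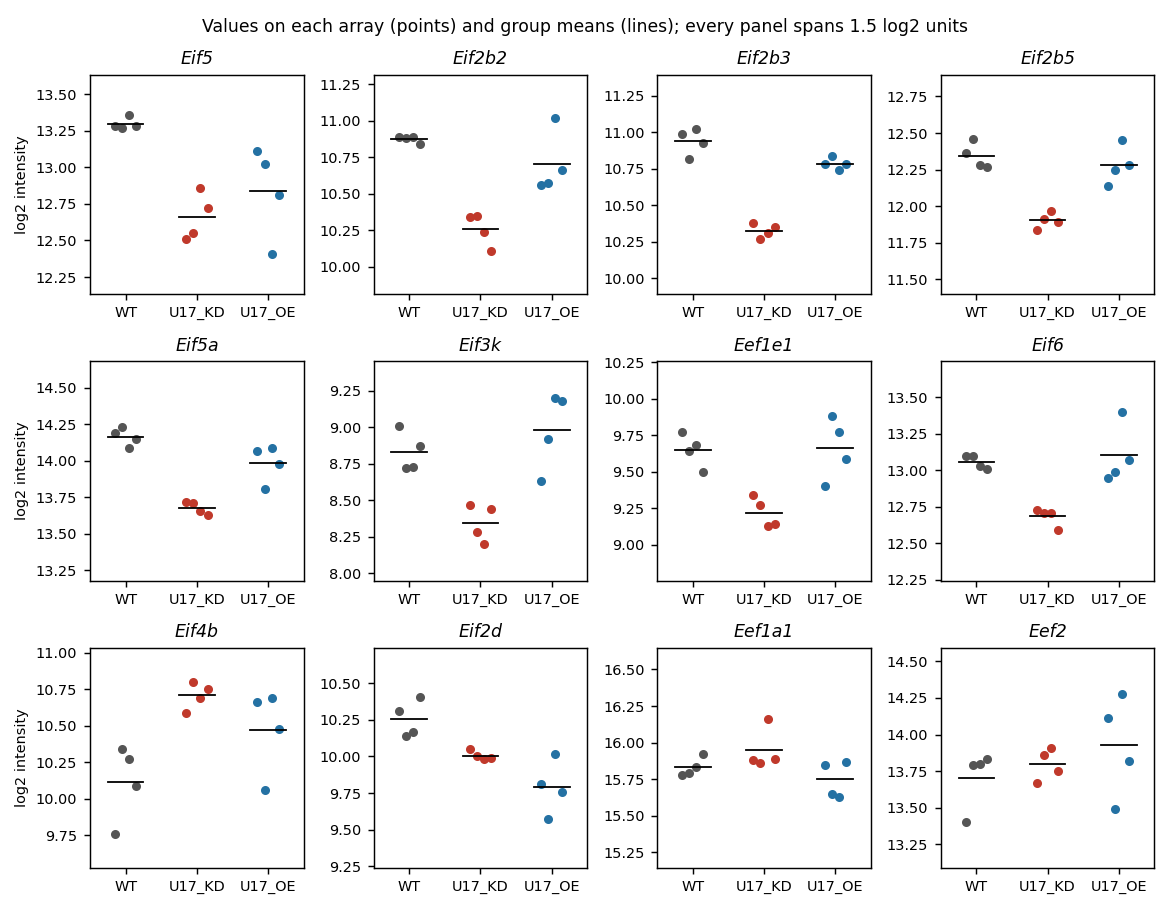
Log2 intensity on each array (points) with the group mean (line) for 12 genes in WT, U17_KD and U17_OE; each panel spans the same width of 1.5 log2 units, so differences within a panel can be compared between panels but levels cannot. The U17_KD arrays sit below every WT array for Eif5, Eif2b2, Eif2b3, Eif2b5, Eif5a, Eif3k, Eef1e1, Eif6 and Eif2d, and above them for Eif4b; for Eef1a1 and Eef2 the groups overlap.

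Of the genes for eIF1 and eIF1A, which scan for the start codon, 3 were tested. Eif1ad, named for an eIF1A-like domain, read 10.97, 10.61, 10.76 and 10.90 in WT, 10.42, 10.46, 10.33 and 10.37 in U17_KD and 10.67, 10.83, 10.75 and 10.88 in U17_OE. The knockdown arrays were lower than all others, by -0.41 ± 0.09 from WT (limma adjusted p = 0.000962). Its other probes read -0.48 and -1.03, so the direction was shared by 3 probes and the size was not. Eif1a was at 0.03 (-0.16 to 0.22) and Eif1b at 0.02 (-0.18 to 0.22) in U17_KD.

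The eIF3 genes, whose products form the large platform between the ribosome and the other factors, held 2 calls in 9 tested genes and a median of -0.15 in U17_KD. Both calls were lower, and their share of 22.2% was near the 20.4% of all genes tested. Eif3k, a small peripheral subunit, read 9.01, 8.72, 8.73 and 8.87 in WT, 8.47, 8.28, 8.20 and 8.44 in U17_KD and 8.63, 8.92, 9.20 and 9.18 in U17_OE. Knockdown arrays lay below the rest, at -0.48 ± 0.12 from WT (limma adjusted p = 0.00483), while the U17_OE value of 0.15 was not called. Eif3c, a core subunit, was lower by -0.34 ± 0.07 (limma adjusted p = 0.00117) with no overlap, but its second probe read -0.18 (not called), and the average of both was -0.26 with an adjusted p of 0.0701. The subunit genes Eif3d, Eif3f and Eif3i had the narrowest intervals: -0.01 (-0.14 to 0.11), 0.03 (-0.11 to 0.16) and -0.02 (-0.14 to 0.10). The core subunit genes Eif3a and Eif3b were at -0.28 (-0.64 to 0.07) and -0.15 (-0.31 to 0.02) and were not called; Eif3a was called in U17_KD without U17_OE replicate 3, the array on which it read 9.39 against 10.09 to 10.54 in the rest of its group (adjusted p = 0.0253). Eif3l was at -0.10 (-0.25 to 0.06) and Eif3j1, read near the detection level, at -0.32 (-0.77 to 0.14).

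Among the cap-binding, scaffold and helicase genes 4 of 8 were called lower and 1 higher in U17_KD. The shares of all genes tested in this comparison were 20.4% called lower and 20.0% called higher. Eif4b, which encodes the protein that stimulates the eIF4A helicase, was the member with the largest rise. It read 9.76, 10.34, 10.27 and 10.09 in WT, 10.59, 10.80, 10.69 and 10.75 in U17_KD and 10.66, 10.06, 10.69 and 10.48 in U17_OE. The knockdown arrays lay above all WT arrays, by 0.59 ± 0.13 (1.51-fold, limma adjusted p = 0.00171). In U17_OE 3 of 4 arrays also lay above WT, and the difference of 0.36 (95% interval 0.08 to 0.64, adjusted p = 0.0985) was called without replicate 2 of that group (0.49, adjusted p = 0.0116).

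The helicase genes read the other way. Eif4a1, the main eIF4A of growing cells, read 14.77, 14.65, 14.78 and 14.74 in WT, 14.56, 14.36, 14.62 and 14.41 in U17_KD and 14.76, 14.73, 14.54 and 14.64 in U17_OE. The U17_KD arrays were below all WT arrays but reached into the U17_OE range, and the difference from WT was -0.25 ± 0.07 (limma adjusted p = 0.00833), with -0.33 at its second probe. Eif4a2, its paralog, read 13.15, 13.09, 13.51 and 13.07 in WT, 12.97, 12.62, 12.80 and 12.79 in U17_KD and 13.44, 13.65, 12.85 and 13.16 in U17_OE. All U17_KD arrays were below all WT arrays, and 1 U17_OE array fell among them. It was lower than WT by -0.41 ± 0.14 (adjusted p = 0.0229), a call lost without WT replicate 3 (-0.31, adjusted p = 0.0929) or U17_KD replicate 2 (-0.35, 0.0786). Eif4a3, the helicase of the exon junction complex, was at -0.22 ± 0.07 (adjusted p = 0.0277), and that call was lost without WT replicate 1 or 2 or without U17_KD replicate 3 or 4, at adjusted p from 0.0511 to 0.0877. Probes for these abundant helicases may also bind transcripts of processed copies.

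Eif4g2 encodes a scaffold that lacks the eIF4E-binding part. Its probe gave -0.42 ± 0.13 in U17_KD (limma adjusted p = 0.016), but WT replicate 2 read 11.36 against 10.71 to 10.80 on the other WT arrays. Without that array the difference was -0.27 (adjusted p = 0.0613), without U17_KD replicate 2 it was -0.36 (0.0604), and the gene's second probe read 0.00. Eif4e, the cap-binding protein itself, was near the detection level and was detected on 2 arrays of each group. It read 5.91, 5.36, 5.45 and 5.59 in WT, 5.40, 5.72, 5.16 and 6.08 in U17_KD and 5.30, 5.76, 5.50 and 5.61 in U17_OE, and the groups overlapped throughout. Its interval in U17_KD, -0.40 to 0.42 around 0.01, is wide, so a change of the size seen in Eif4a1 was not detectable at this signal. Eif4h, an eIF4B-like helper, was at 0.10 (-0.08 to 0.27) and Eif4e2, a cap-binding paralog, at 0.12 (-0.08 to 0.32). Other kept Eif4e2 probes read 0.08 (not called) and 0.27 (called higher, limma adjusted p = 0.0292) in U17_KD. In U17_OE the probe used read 0.27 (0.07 to 0.48, adjusted p = 0.0809), with all its arrays above all WT arrays. Without U17_OE replicate 1 that difference was 0.33 and was called (adjusted p = 0.0427).

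The eIF4E-binding proteins block assembly on the cap until mTOR phosphorylates them. Eif4ebp1 read 13.40, 13.28, 13.48 and 13.73 in WT, 13.24, 13.16, 13.16 and 13.32 in U17_KD and 13.26, 13.25, 13.19 and 13.40 in U17_OE. The knockdown arrays lay at the low end of WT with 1 overlapping array, at -0.25 ± 0.08 (limma adjusted p = 0.0224), and the call was lost without WT replicate 4 (-0.17, adjusted p = 0.0991), U17_KD replicate 2 (0.0638) or U17_KD replicate 3 (0.06). Eif4ebp2 was lower by -0.42 ± 0.13 (adjusted p = 0.0137) with no overlap, and without WT replicate 2 by -0.32 (adjusted p = 0.0581). Eif4enif1, which encodes the transporter that carries eIF4E into the nucleus, was at -0.10 (-0.36 to 0.16).

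Eif5a encodes the hypusine-bearing factor that helps the ribosome past difficult peptide bonds. It read 14.19, 14.23, 14.09 and 14.15 in WT, 13.72, 13.71, 13.66 and 13.63 in U17_KD and 14.07, 13.81, 14.09 and 13.98 in U17_OE. All U17_KD arrays were below all others, by -0.49 ± 0.07 from WT (1.40-fold, limma adjusted p = 1.28e-05), and its other 2 kept probes read -0.46 and -0.55, both called. The U17_OE arrays were at or below the lowest WT array, at -0.18 (95% interval -0.32 to -0.04, adjusted p = 0.101), and without U17_OE replicate 3 the value was -0.21 (0.0327). Eif6, which keeps the large subunit from joining too early and also acts in its making, read 13.10, 13.10, 13.03 and 13.01 in WT, 12.73, 12.71, 12.71 and 12.59 in U17_KD and 12.95, 12.99, 13.40 and 13.07 in U17_OE. The difference in the knockdown clone was -0.37 ± 0.08 (adjusted p = 0.00176) with no overlap, while its second probe gave -0.09 and was not called. Eif5b, the joining factor, was at 0.17 (-0.15 to 0.49).

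Of the elongation factor genes, 2 of the 5 for eEF1 were called lower in U17_KD (40.0%, against 20.4% of all genes tested). Of the 5 for eEF2 and the modifying enzymes 1 was called higher (20.0%), which is the share of all genes tested called higher (20.0%). Eef1e1 encodes a scaffold protein of the aminoacyl-tRNA synthetase complex that carries an elongation factor name. It read 9.77, 9.64, 9.68 and 9.50 in WT, 9.34, 9.27, 9.13 and 9.14 in U17_KD and 9.40, 9.88, 9.77 and 9.59 in U17_OE. The knockdown arrays were below all others, by -0.43 ± 0.11 from WT (limma adjusted p = 0.0035). Eef1d, a subunit of the complex that recharges eEF1A, was lower by -0.26 ± 0.09 (adjusted p = 0.0289) without overlap. That call was lost without WT replicate 1 or 2 or U17_KD replicate 2 or 4, at adjusted p from 0.0552 to 0.0945. A second Eef1d probe, annotated to another RefSeq transcript, gave -0.77 ± 0.08 (adjusted p = 4.27e-07) in U17_KD and -0.32 (0.0119) in U17_OE. Both probes of this gene were lower in U17_KD, while in U17_OE the first read 0.06 and was not called.

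The 2 core elongation factors were not called in either clone against WT. Eef1a1, which encodes the tRNA carrier eEF1A, read 15.78, 15.79, 15.83 and 15.92 in WT, 15.88, 15.86, 16.16 and 15.89 in U17_KD and 15.85, 15.65, 15.63 and 15.87 in U17_OE. The groups overlapped, and the difference in U17_KD was 0.12 (-0.04 to 0.27). Eef2, the translocase, read 13.40, 13.79, 13.80 and 13.83 in WT, 13.67, 13.86, 13.91 and 13.75 in U17_KD and 14.11, 13.49, 14.28 and 13.82 in U17_OE. These groups overlapped too, with 0.09 (-0.18 to 0.37) in U17_KD and 0.22 (-0.05 to 0.50) in U17_OE. Without U17_OE replicate 2 the latter was 0.37 with an adjusted p of 0.042. Eef1g and Eef1b2, further subunits of the recharging complex, were at -0.04 (-0.17 to 0.08) and 0.06 (-0.12 to 0.23). Eef1a1 and Eef1g read near the top of the intensity range, where a change may be understated, and Eef1a1 has many processed copies.

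Of the enzymes, Eef2kmt, the methyltransferase of eEF2, was called higher in U17_KD at 0.32 ± 0.11 (limma adjusted p = 0.0317), with its 4 arrays above all WT arrays. Its second probe read -0.08, and the call was lost without WT replicate 3 or 4 or U17_KD replicate 1, 2 or 3, at adjusted p from 0.0545 to 0.1. Eef2k, the kinase that inactivates eEF2, read 0.23 (-0.02 to 0.48) without overlap between U17_KD and WT and was not called. Eef1akmt1, a methyltransferase of eEF1A, was at 0.25 (0.04 to 0.47, adjusted p = 0.0603) and Eef1aknmt, another, at -0.11 (-0.30 to 0.08).

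Several genes had more than 1 probe above the detection level, which allowed the same gene to be read by another probe. Probe sequences were not checked, and probes of a gene may read different transcripts of it. Of the 21 genes called in U17_KD, 12 had another kept probe, 16 such probes in all. The other probe had the same sign in 13 of the 16 and was itself called lower in 11, while 18.9% of all kept probes were called lower. These genes were picked by their calls on the same arrays, so the higher share is no independent support. The 3 without the same sign belong to Eif2d, Eif4g2 and Eef2kmt.

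**Figure D3:**
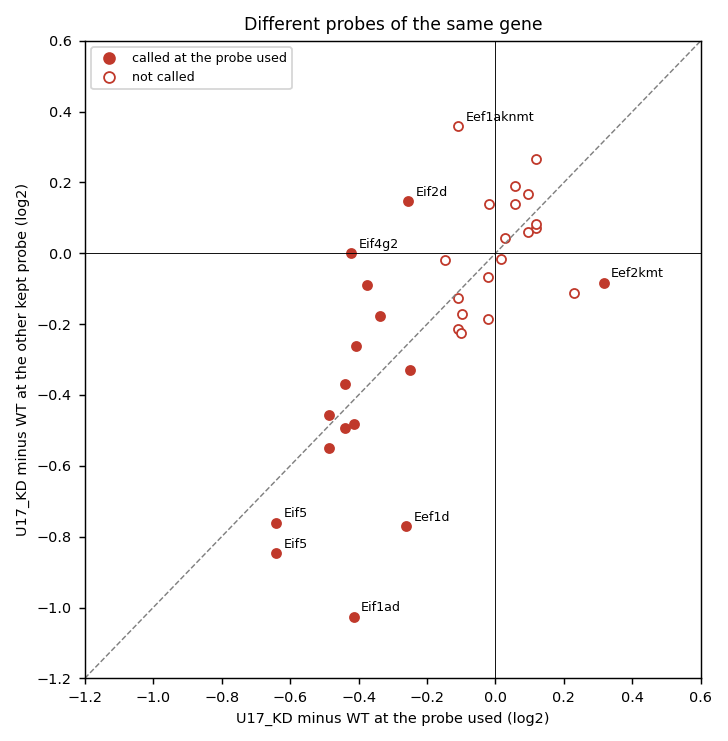
Difference between U17_KD and WT (log2) at the probe used for a gene (horizontal axis) against each of the gene's other kept probes (vertical axis); filled points are genes called at the probe used, and the dashed line marks equal values. Most filled points lie at the lower left with both probes below 0, while Eif2d, Eif4g2 and Eef2kmt do not.

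In the overexpression clone 2 of the 46 genes were called lower than WT and 0 higher, which is 4.35% of those tested. Among all genes tested, 12.9% were called in this comparison, 6.36% lower and 6.49% higher. The 2 are Eif2d and Eif5, whose values are given above. At an unadjusted p under 0.05 from the same limma fit, 6 were lower and 4 higher. The median difference was -0.06 against -0.01 for all genes. In 3 genes the U17_OE arrays all lay below WT and in 3 all above, where 7.89% and 8.10% of all genes did so. Dropping U17_OE replicate 3 gave 5 called genes, adding Eif2b2 and Eif5a as given above and Eif1b at 0.28 (adjusted p = 0.039), and dropping replicate 2 of that group gave 4. Eef1akmt1 in U17_KD against WT was also called without U17_OE replicate 3, at 0.25 (adjusted p = 0.0316), since the arrays share 1 estimate of the spread. The members' median SD among arrays was 0.15 in U17_OE, 0.111 in WT and 0.085 in U17_KD.

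Compared directly, the knockdown clone was lower than the overexpression clone in 14 of the 46 genes and higher in 2, or 30.4% and 4.35%. Over all genes tested 33.1% were called, 16.5% in each direction. The median was -0.11 against -0.01 over all genes. This comparison shares the U17_KD arrays with the comparison to WT, so the values stand side by side only. The largest difference was in Eif3k, at -0.63 ± 0.12 (1.55-fold, limma adjusted p = 0.000739), where it was -0.48 against WT. Eif4a2 followed at -0.48 ± 0.14 (0.0111), Eif2b3 at -0.46 ± 0.07 (0.000101), Eef1e1 at -0.44 ± 0.11 (0.0038) and Eif2b2 at -0.44 ± 0.10 (0.0019). Eif6, Eif1ad, Eif2b5, Eef1d and Eif5a were lower by -0.42, -0.39, -0.38, -0.32 and -0.31. Of the 2 genes called lower in both clones, Eif5 differed between them by -0.18 (95% interval -0.42 to 0.07) and was not called at the probe used, while its other 2 probes read -0.44 (adjusted p = 3.7e-05) and -0.36 (0.00671) and were called. Without U17_OE replicate 3 the probe used gave -0.32 (adjusted p = 0.00434). Eif2d differed by 0.21 (0.01 to 0.42, adjusted p = 0.109) and was not called, and without that array by 0.29 (0.0112).

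The other 6 called genes in that comparison were Eif2s3x, Eif2b4, Eif3c and Eif3i on the lower side and Eef2kmt and Eef1a1 on the higher. Each lost its call when 1 of several single arrays was left out, 5 arrays for Eif2s3x, 6 for Eef2kmt, 7 for Eif2b4 and Eif3c and 9 for Eif3i and Eef1a1, of the 12. Eef1a1, at 0.20 ± 0.07 (limma adjusted p = 0.047), had an adjusted p of 0.172 and a value of 0.13 without U17_KD replicate 3. The number of genes called was 11 to 19 over these 12 fits, lowest without U17_KD replicate 1, 2 or 4 (11 each) and highest without U17_OE replicate 3. Leaving out U17_OE replicate 3 added Eif1b (-0.25, adjusted p = 0.0337), Eif3a (-0.33, 0.0189) and Eif4a1 (-0.22, 0.0142) besides Eif5 and Eif2d, and took away Eef1a1 (0.16, 0.102) and Eif3i (-0.15, 0.0551).

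The remaining 13 genes had no probe on at least 4 arrays above the detection level. Eif3h and Eif3m were above it on 2 arrays, Eif3e on 1, and Eef1a2, Eef1akmt2, Eif1ax, Eif2s3x-ps1, Eif2s3y, Eif4e1b, Eif4e3, Eif4ebp3, Eif4g3 and Eif5a2 on 0. A probe below the level bounds that probe and not its gene. Eif1, Eif2s1, Eif3g, Eif3j2, Eif4g1, Eef1akmt3 and Eef1akmt4 were not analysed here, so the alpha subunit of eIF2 and the main eIF4G scaffold are not among the values.

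Genes that work with these factors were read from 8 lists holding 58 genes, of which 52 were tested. The knockdown clone had 17 called lower and 7 higher than WT (32.7% and 13.5%, against 20.4% and 20.0% of all genes tested), with a median of -0.12. The overexpression clone had 3 lower and 1 higher (5.77% and 1.92%, against 6.36% and 6.49%), so its share of lower genes was near that of all genes. Among the called genes, Mlst8, a subunit of the mTOR complexes, had the largest difference in U17_KD at -0.89 ± 0.07 (limma adjusted p = 1.78e-08), with 0.00 in U17_OE. Eif2ak3, the eIF2alpha kinase of the endoplasmic reticulum (PERK), was called higher in U17_KD but read near the detection level. It was detected on 0 WT, 3 U17_KD and 2 U17_OE arrays, with means of 5.11, 5.85 and 5.61. The gene passed the detection filter only through the clones, so its call against WT is no independent support for a rise. In U17_OE the largest differences among the called genes were in Gspt2, a release factor gene, at -0.54 ± 0.10 (adjusted p = 0.0014) and Paip2b, a repressor of poly(A)-binding protein, at -0.47 ± 0.09 (0.00276). Between the clones Hbs1l, a ribosome rescue factor gene, followed Mlst8 at -0.68 ± 0.08 (adjusted p = 3.77e-06).

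Of the 12 tested genes of the mTOR and MNK arm, which relays growth signals to eIF4E and its inhibitors, 6 were lower and 2 higher in U17_KD. Chosen after their values were seen, the lower ones besides Mlst8 were Tsc2 (-0.67), Myc (-0.66), Larp1 (-0.56), Rptor (-0.39) and Mtor (-0.33), and the higher ones were Tsc1 (0.67) and Pdcd4 (0.46). Pdcd4 was also called higher in U17_OE, at 0.30 (limma adjusted p = 0.0153). Tsc1 and Tsc2 encode partners in the complex that restrains mTOR, and they moved in opposite directions. Among 7 tested genes for the enzymes that make hypusine on eIF5A or diphthamide on eEF2, 3 were lower. That is 42.9%, against 20.4% of all genes tested. The 3 were Dhps (-0.49), the first enzyme for hypusine, and Dph2 (-0.40) and Dph3 (-0.30) for diphthamide. Of 10 mitochondrial translation factor genes 2 were higher and 1 lower (20.0% and 10.0%), where 20.0% of all genes tested were called higher and 20.4% lower, so the share of higher genes was that of all genes. Mtif2 was higher by 0.50 and Guf1 by 0.57, while Tufm, the mitochondrial counterpart of Eef1a1, was lower by -0.34.

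**Figure D4:**
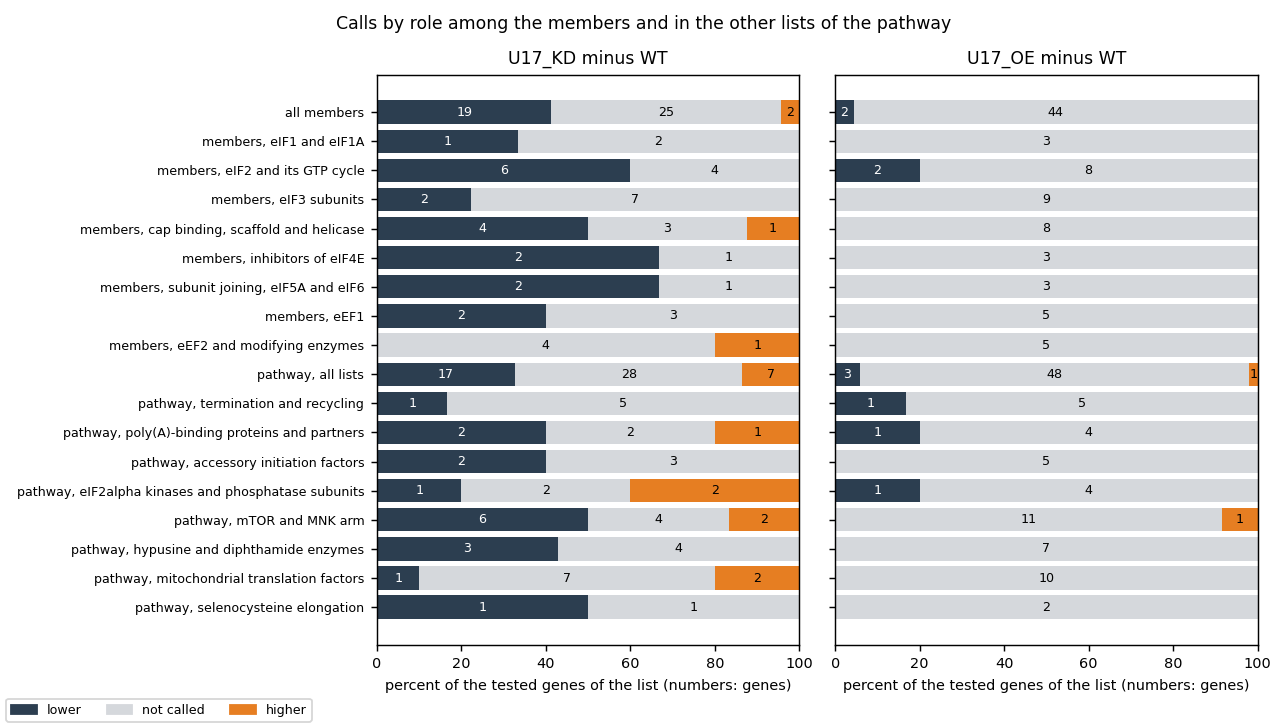
Share of the tested genes called lower, not called or called higher in U17_KD (left) and U17_OE (right) against WT, by role for the initiation and elongation factors and by list for the other genes of the pathway; numbers are genes. Of the roles, eIF2 and its GTP cycle holds 6 of 10 genes called lower in U17_KD and 2 of 10 in U17_OE. That is 60.0% and 20.0%, against 20.4% and 6.36% of all genes tested. Inhibitors of eIF4E and the role of subunit joining, eIF5A and eIF6 each had 66.7% called lower in U17_KD.

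Since Myc and Larp1 were among the lower genes, the promoters were read for the letters each is known for: the E-box CACGTG, which Myc binds, and a pyrimidine start, the mark of mRNAs that Larp1 binds. RefSeq promoters (GRCm38.p6, from 250 bases before to 50 after each start) were found for 44 of the 59 genes. CACGTG, which reads the same on both strands, was present in 12 of the 44 (27.3%), against 8.09% of 27025 RefSeq genes. The latter are all genes with a RefSeq promoter, tested on these arrays or not, so the sets compared are unlike. By call in U17_KD it was in 3 of 14 lower genes (21.4%) and 8 of 21 genes not called (38.1%). A pyrimidine start was taken as a C followed by at least 4 letters that are each C or T, with the C at most 5 bases from the RefSeq start on the gene's strand. It was present in 10 of the 44 (22.7%), against 21.2% of the same RefSeq genes. By call it was in 4 of 14 lower genes (28.6%) and in 5 of 21 not called (23.8%). Where the true start lies away from the RefSeq start, this rule can miss it. A gene without a match is therefore not shown to lack a pyrimidine start. Below, capitals mark the E-box in 2 lower genes (Eif3k, Eif5a) and 2 not called (Eef2, Eif3f), then the pyrimidine start in 2 lower genes (Eif2s3x, Eif2b5) and 2 not called (Eef1a1, Eif3f), each on the gene's strand.
Eif3k, chr7:28981915-28981944, minus strand: ctggaaggaaatCACGTGgtagacaaaaaa
Eif5a, chr11:69921443-69921472, minus strand: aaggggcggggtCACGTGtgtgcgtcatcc
Eef2, chr10:81176576-81176605, plus strand: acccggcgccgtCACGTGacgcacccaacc
Eif3f, chr7:108934335-108934364, plus strand: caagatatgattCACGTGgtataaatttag
Eif2s3x, chrX:94212637-94212666, minus strand: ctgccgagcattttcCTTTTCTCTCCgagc
Eif2b5, chr16:20498802-20498831, plus strand: ccttcctctttctCTCCCTgcaactacacc
Eef1a1, chr9:78481710-78481739, minus strand: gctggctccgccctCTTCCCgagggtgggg
Eif3f start, chr7:108934400-108934429, plus strand: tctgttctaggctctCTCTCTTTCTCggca
Both letter patterns stood in genes that were lower and in genes that were not called, and a match describes the sequence only.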

How the data were processed

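Per the labels, cDNA from total RNA of 12 cultures was made with an oligo-dT primer, and biotin was the label. The tool given in the submitters' processing notes is GenomeStudio 2010. The authors deposited a normalized table of probe intensity on a linear scale, and how it was normalized is not given in the sources used. Per the file headers, the other table the authors deposited has intensity before normalization and detection p-values; only its WT columns were used, to set the background, and 40 of its 48 value columns were not used because their array names match no sample label. Groups were read from the sample titles.

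From the normalized intensity, a normexp background correction (background mean 0.492, SD 15.8, from the WT arrays) with an offset of 16 was applied and log2 taken. Probes above a level of 30.5 on at least 4 arrays were kept (16706 of 45281). A limma 3.58.1 fit (R 4.3.3) of the 3 groups, with a trended eBayes prior and 9 residual degrees of freedom, gave the 3 contrasts. Adjusted p-values run over all kept probes. Depth does not apply to arrays: 4 per group limit the precision. Probes were named from the platform annotation: 34885 have 1 symbol, 18 several and 10378 are unlisted.

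Values on every array are given for up to 8 called members with the largest difference per contrast. They are also given for the central factor of each role. Other pathway genes are named by the 2 largest called differences per contrast. Beyond that rule, genes of the mTOR and MNK, hypusine and diphthamide, and mitochondrial lists are named because they were called in U17_KD. The members, roles and lists were chosen with earlier results of these data known. The fit was tested on simulated data with known changes. Alternatives covered background, normalization, filter, probe choice, weights, prior, groups fitted, replicate block and leaving out each array.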

Additional observations from a re-analysis of the deposited data

Results flagged for a closer look

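Over the 46 tested genes, the 138 sets of 4 arrays were searched for an array whose gap to its neighbour passed Dixon's 95% critical value for 4 arrays. There were 11, or 7.97%, and chance gives about 1 in 20. All values are log2 intensities. In WT, replicate 1 was low for Eef2 (13.40 against 13.79 on the nearest array) and Eif3c (10.38 against 10.48). WT replicate 4 was low for Eif1b (10.68 against 10.88), Eif2b2 (10.84 against 10.88) and Eif4e2 (10.83 against 11.04), and WT replicate 2 was high for Eif4g2 (11.36 against 10.80). In U17_KD, replicate 3 was high for Eef1a1 (16.16 against 15.89) and Eif2s2 (11.63 against 11.44), and replicate 4 was low for Eif6 (12.59 against 12.71). In U17_OE, replicate 3 was high for Eef2kmt (8.75 against 8.36) and replicate 4 low for Eif3j1 (5.28 against 6.23, at the detection level). The effect of leaving out WT replicate 2 on Eif4g2 and of U17_KD replicate 3 on Eef1a1 is given above.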

How the results depend on the processing

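Of the 21 genes called in U17_KD against WT, 11 stayed called under all 23 alternatives (Eef1e1, Eif1ad, Eif2b2, Eif2b3, Eif2b5, Eif3k, Eif4a1, Eif4b, Eif5, Eif5a and Eif6), and 10 lost the call under some; none of the 21 reversed. In U17_OE, Eif5 stayed called under all 23 and Eif2d did not. Leaving out 1 array gave 14 to 23 called genes for U17_KD against WT, 2 to 5 for U17_OE against WT (4 without U17_OE replicate 2, 5 without replicate 3) and 11 to 19 for U17_KD against U17_OE. Without the detection filter U17_KD against U17_OE gave 10 called genes in place of 16, and the replicate block also gave 10; the cause was not tested. Same-numbered arrays of different groups did not deviate together (12 correlations from -0.382 to 0.089), and the block gave 19 and 2 called genes for U17_KD and U17_OE against WT. The median difference of all kept probes in U17_KD against WT was -0.022 in the main fit. It was -0.023 under quantile normalization and under median centring. The deposited arrays were already alike in scale, with 15820 to 15832 probes above the level on each, so these scalings had little to change. Low signal limits Eif4e and Eif3j1, the design of 1 clone per group limits every comparison, and probes of genes with near-identical copies may read more than 1 gene.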
